A study of Mus musculus with 17 samples.

Results

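The 33 genes described here carry glucose and glycogen carbon to the pyruvate dehydrogenase complex. They are a fixed list of glucose transport, glycolysis, glycogen and pyruvate dehydrogenase genes, were matched by symbol to the gene identifiers of the count table, and were all found among its 55487 genes. RNA was sequenced from ventricular cardiomyocytes of mice aged 60 days, isolated with Liberase by Langendorff perfusion, plated for 3 h on laminin, and then exposed to actinomycin D, an inhibitor of transcription, at 2 µg/mL. The groups were MBNL1 loss-of-function (KO) myocytes at 0, 4 and 8 h of actinomycin D with 3 libraries each, and wild-type (WT) myocytes with 3 libraries at 0 h, 2 at 4 h and 3 at 8 h, 17 libraries in all. MBNL1, a muscleblind protein, binds RNA and acts in splicing and in the localisation and decay of mRNA. Isolation, plating and actinomycin D were common to both genotypes, cells kept for 4 or 8 h without actinomycin D were not analysed here, and the labels give neither the allele nor the number of animals.

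Glucose enters heart muscle cells through GLUT1 and the insulin-responsive GLUT4, and hexokinase traps it as glucose 6-phosphate, which can be stored as glycogen or passed down glycolysis. Phosphofructokinase commits the sugar to glycolysis, the enzymes from glyceraldehyde 3-phosphate to pyruvate recover ATP, and lactate dehydrogenase interconverts pyruvate and lactate. The mitochondrial pyruvate carrier and the pyruvate dehydrogenase complex bring pyruvate into the citric acid cycle. The adult heart draws most of its energy from fatty acids and the rest from glucose, lactate and other fuels, and several of these steps have a muscle isoform beside a general one.

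Sequences are shown first for some of the members whose KO and WT levels differed in the same direction under every scaling tried at 1 time or more. Each promoter runs from 250 bases before to 50 bases after a transcription start (RefSeq, GRCm38.p6). Capitals mark ACGTG on either strand, the core bound by HIF-type and other bHLH factors, so it also appears as its reverse complement, and the palindrome of both is counted on each strand. Ldha (lactate dehydrogenase A) lies at chr7:46845554-46845853 on the plus strand, Pgk1 (phosphoglycerate kinase) at chrX:106186850-106187149 on the plus strand, Pgam1 (the general phosphoglycerate mutase) at chr19:41911621-41911920 on the plus strand, Hk2 (hexokinase 2) at chr6:82774405-82774704 on the minus strand and Slc16a1 (the lactate and pyruvate transporter MCT1) at chr3:104638414-104638713 on the plus strand.
Ldha: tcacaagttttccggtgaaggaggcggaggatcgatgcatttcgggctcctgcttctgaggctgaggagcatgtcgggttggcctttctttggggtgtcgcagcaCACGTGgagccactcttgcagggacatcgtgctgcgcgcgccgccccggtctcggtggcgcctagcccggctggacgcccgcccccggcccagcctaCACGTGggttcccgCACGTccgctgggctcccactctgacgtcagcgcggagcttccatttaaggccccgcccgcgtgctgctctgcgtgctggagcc
Pgk1: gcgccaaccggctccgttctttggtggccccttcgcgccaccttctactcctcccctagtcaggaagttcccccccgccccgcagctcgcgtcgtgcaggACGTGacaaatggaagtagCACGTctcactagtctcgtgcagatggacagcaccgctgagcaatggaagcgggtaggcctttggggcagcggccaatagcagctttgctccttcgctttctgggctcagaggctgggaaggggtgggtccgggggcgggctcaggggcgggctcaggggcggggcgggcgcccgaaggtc
Pgam1: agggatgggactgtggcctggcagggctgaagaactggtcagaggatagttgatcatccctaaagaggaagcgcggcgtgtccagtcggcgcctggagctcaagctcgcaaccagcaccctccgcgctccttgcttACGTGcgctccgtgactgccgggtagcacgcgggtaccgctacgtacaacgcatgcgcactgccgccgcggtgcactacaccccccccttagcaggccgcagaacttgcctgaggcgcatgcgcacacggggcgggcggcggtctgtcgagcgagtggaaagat
Hk2: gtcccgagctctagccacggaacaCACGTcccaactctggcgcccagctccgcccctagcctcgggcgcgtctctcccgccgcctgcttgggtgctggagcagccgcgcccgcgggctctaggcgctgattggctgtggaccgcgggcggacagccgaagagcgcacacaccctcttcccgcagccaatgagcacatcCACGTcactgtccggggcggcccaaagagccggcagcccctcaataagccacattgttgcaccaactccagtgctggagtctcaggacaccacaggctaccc
Slc16a1: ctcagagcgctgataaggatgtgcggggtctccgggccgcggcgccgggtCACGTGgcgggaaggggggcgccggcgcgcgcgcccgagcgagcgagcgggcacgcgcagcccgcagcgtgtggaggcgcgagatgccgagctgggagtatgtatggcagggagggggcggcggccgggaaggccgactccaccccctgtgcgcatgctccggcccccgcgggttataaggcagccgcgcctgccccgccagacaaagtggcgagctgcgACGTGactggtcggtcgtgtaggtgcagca
The Ldha window held 5 matches, Slc16a1 3, Hk2 and Pgk1 2 each, and Pgam1 1. All windows shown thus hold a match. Eno3, Dlat and Gbe1, which also differed alike under every scaling at 1 time or more, had no match and are not shown. They are examples and not the full list of such members without a match. The windows shown were picked, so they do not give the share of such members with a match. Of the 32 members with a window, 16 (50%) had a match in at least 1 window, against 21.78% of 27025 genes and 23.24% of 17492 protein-coding genes. A gene with more windows has more chances of a match. By window the share was 38.78% of the members' 49, against 19.62% of 32851 for all genes and 20.86% for protein-coding genes. Genes not expressed in these cells were not left out of these shares. Among members higher in KO at 0 h it was 10 of 23, among those lower 3 of 3, and among those not called 3 of 6. A match is a string of letters in the window and says nothing of binding.

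MBNL proteins bind GC between a pair of pyrimidines (TGCT, and the same with C for either T), and the next 6 sequences are the 30-base stretches of 3′ untranslated region with the most such letters in 3 members lower in KO (Hk2, Pygb, Slc16a1) and 3 higher (Pgam1, Pdha1, Tpi1). Capitals mark the motif on the transcript strand, where neighbouring matches can overlap. Positions are on GRCm38: Hk2 chr6:82725176-82725205, Pygb chr2:150830540-150830569, Slc16a1 chr3:104655773-104655802, Pgam1 chr19:41917796-41917825, Pdha1 chrX:160123472-160123501 and Tpi1 chr6:124811239-124811268.
Hk2: aggttgacagctctctcTGCTaaTGCTGCT
Pygb: gtggctTGCTtagctgactgTGCCcaCGCC
Slc16a1: ccTGCTggcctctagtctaccagtggTGCT
Pgam1: accccgacaccctcccTGCCtgttccTGCC
Pdha1: gtggtgtggtcctagctgtgaaTGCCTGCT
Tpi1: gcacTGCCcatccctctaccTGCCtgcata
Pygb, the brain form of glycogen phosphorylase, had the motif 27 times in 1244 bases of 3′ untranslated region (21.7 per kb), Hk2 25 times in 2285 bases (10.9 per kb) and Slc16a1 29 times in 2740 bases (10.6 per kb). Pdha1 had it 19 times in 1574 bases (12.1 per kb), Pgam1 10 times in 885 bases (11.3 per kb) and Tpi1 9 times in 683 bases (13.2 per kb). The 31 members with at least 100 such bases had a median of 13.2 per kb against 12.6 for 11427 genes, and 16 of the 31 lay above that figure. The motif density of Pygb was above the upper quartile of all genes (16.1 per kb), and the other 5 lay within the quartiles.

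Each library held 17059736 to 17971617 counts, of which mitochondrial transcripts took 35.1% to 43.3%, and all 33 members were among the 13230 genes that passed edgeR's filter on low counts. The Mbnl1 gene was counted 1465 to 1823 times in WT and 1627 to 1820 times in KO libraries, so its whole-gene count was not lower in KO (log2 KO over WT 0.19 ± 0.05 SE at 0 h, edgeR quasi-likelihood test, adjusted p = 0.000811). The labels do not say which part of the gene was changed, so a whole-gene count does not check the genotype, and KO and WT below mean the libraries so labelled. Cardiomyocyte markers summed to 45317 to 48142 CPM (counts scaled to a common library size) in KO and 34264 to 37337 in WT at 0 h, with 7 of 10 called higher in KO and none at 0. Macrophage and leukocyte markers summed to 38.8 to 42.9 in KO and 89.5 to 103 in WT (9 of 10 lower), fibroblast markers to 35.6 to 38.8 and 69.4 to 71.4 (8 of 9 tested lower), and endothelial markers to 222 to 257 and 303 to 325 (8 of 10 lower, 1 higher). Of smooth muscle and pericyte markers 1 of 8 tested was lower, and of erythroid markers 1 of 3. By 8 h the cardiomyocyte sum was 56639 to 61640 in KO and 47577 to 52638 in WT, the macrophage and leukocyte sum 25.6 to 30.3 and 21.3 to 26.5 (3 of 10 higher, 1 lower), the fibroblast sum 23.3 to 26.03 and 40.4 to 47.7 (6 of 9 lower). The endothelial sum was then 57.6 to 63.7 in KO and 68.5 to 76.2 in WT (4 of 10 lower, 2 higher). The part of these markers in the results below was not tested, and in bulk RNA fewer cells of a type cannot be told apart from less RNA per cell.

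Levels are given as CPM after TMM scaling, a trimmed mean of gene ratios that centres the bulk of genes, and differences as log2 with the standard error (SE), where 1 unit is a 2-fold change. Differences were tested with edgeR's quasi-likelihood test on all 17 libraries, with Benjamini-Hochberg adjusted p under 0.05 over 13230 genes as the call. Nothing in the labels ties replicates to separate animals, so p-values measure only the spread between these samples, which may be technical. Counts are shares of a library, so a rise after actinomycin D is a rise relative to the other transcripts and not in the amount of RNA. In several comparisons other scalings moved the median gene by more than 0.1. For KO over WT at 0 h it was -0.02 with TMM and -0.22 when only library size was used. It was -0.35 when ribosomal protein counts were held equal (ribosomal scaling). In the same order it was -0.03, -0.24 and -0.69 for 8 against 0 h in WT. For KO over WT at 8 h ribosomal scaling moved it less, from -0.02 to -0.07.

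With TMM, KO myocytes had higher levels of most of these genes at every time, whereas with ribosomal scaling more were lower than higher at 0 and 4 h. The largest differences at 0 h were those of Pgam1, Pdha1, Tpi1, Eno3, Pgk1, Pgam2 and Pdhx, enzymes of the triose steps and the pyruvate dehydrogenase complex. At 0 h 23 of 33 members were higher in KO (18.8% of all genes tested were) and 3 were lower (17.9% of all genes). At 4 h 20 were higher (14.6% of all genes) and 5 lower (17.4%), and at 8 h 19 were higher (13.9%) and 2 lower (13.7%). Scaled by library size alone the split at 0 h was 11 higher against 8 lower, and scaled by ribosomal protein counts 7 against 12. In the same order it was, at 4 h, 16 and 5, and 1 and 15, and at 8 h 13 and 4, and 14 and 2. These counts carry the shift of all genes, and the shares of all genes called under these scalings are not given. With library size alone the median gene stood at -0.22, -0.09 and -0.12 at 0, 4 and 8 h. With ribosomal scaling it stood at -0.35, -0.40 and -0.07. The 5 lower at 4 h (Hk2, Pygb, Slc16a1, Slc2a1 and Gys1) were 3 without KO library 1 or WT library 2 or 3 at 0 h, or without KO library 2 or either WT library at 4 h (libraries are numbered as the labels number replicates).

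The members' median difference was 0.25 at 0 h, 0.22 at 4 h and 0.21 at 8 h, and the median over all genes was -0.02, -0.04 and -0.02. Relative to the median gene the members' median stood 0.26, 0.27 and 0.23 higher, and 28 of the 33 lay above it at 0 h, 26 at 4 h and 29 at 8 h. Another scaling shifts all genes of a comparison by about the same amount, so these positions relative to the median gene hardly depend on it, and their agreement between scalings is no sign of stability. As a share of counts outside the mitochondrial genome, the 33 genes took 3.38% to 3.43% in KO and 3.05% to 3.12% in WT at 0 h, and the libraries of the genotypes did not overlap at 0, 4 or 8 h.

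Called alike at 0 h under TMM, RLE, library size alone and ribosomal scaling were 7 members higher in KO (Tpi1, Pgk1, Pgam1, Pgam2, Eno3, Pdha1 and Pdhx) and 3 lower (Hk2, Slc16a1 and Pygb). At 8 h 13 were higher under all 4 (Aldoa, Gapdh, Pgk1, Pgam1, Pgam2, Eno3, Pkm, Ldha, Pdha1, Pdhb, Dlat, Pdhx and Gbe1) and 2 lower (Hk2 and Pygb). At 4 h Pgam1 alone was higher under all 4, and Hk2, Slc16a1 and Pygb were lower. Ribosomal scaling moved the median gene from -0.04 to -0.40 at 4 h and from -0.02 to -0.07 at 8 h. The larger number at 8 h is thus no sign of greater stability. The share of all genes called alike under all 4 scalings was not computed. Whether these counts exceed it is therefore not known. The members called alike at all 3 times and under all 4 scalings were Pgam1, higher, and Hk2 and Pygb, lower. Library size alone and ribosomal scaling move all genes down at each time, and RLE scaling moves them little. A value lower with TMM thus becomes more negative under the first 2. That lower members are called alike is therefore no sign of stability.

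**Figure D1:**
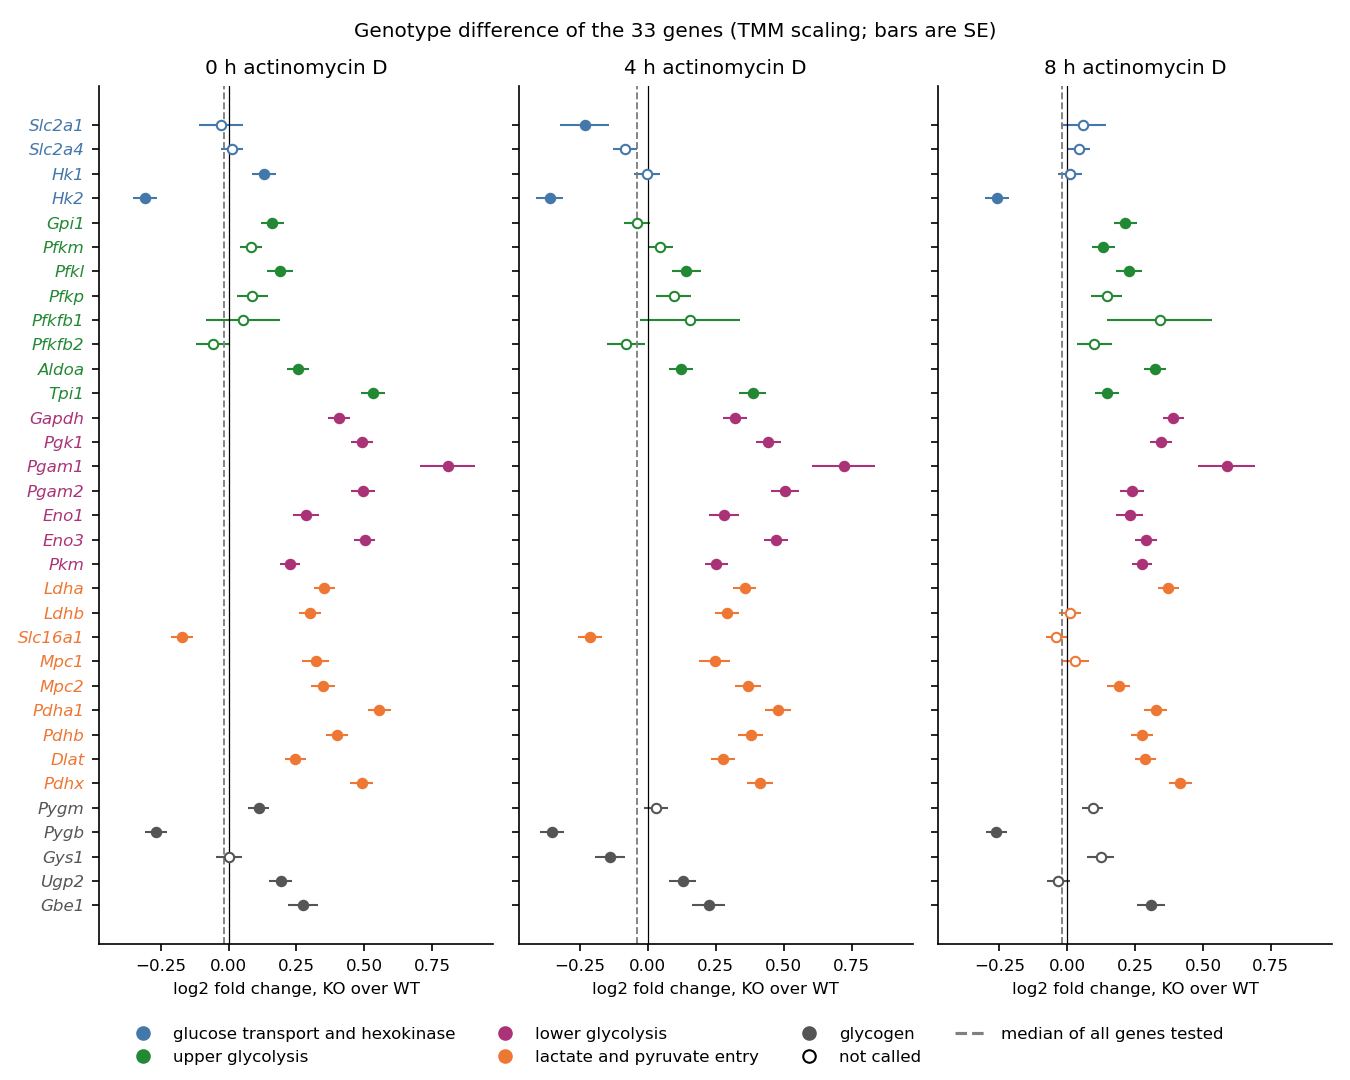
Log2 KO over WT difference of each of the 33 members (TMM-scaled counts, edgeR) with its standard error at 0, 4 and 8 h, coloured by role; filled points passed an adjusted p of 0.05 and the dashed line is the median of all genes. Apart from Slc16a1, lower glycolysis and pyruvate entry genes sit to the right of the line at each time, and Hk2 and Pygb to the left; with ribosomal scaling 12 called members change sign at 0 h (among them Aldoa, Eno1, Pkm and Ldhb), 11 at 4 h and none at 8 h. At 8 h that scaling moves the median gene only from -0.02 to -0.07.

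Of 4 genes for glucose transport and hexokinase, 1 was higher and 1 lower in KO at 0 h, 0 and 2 at 4 h, and 0 and 1 at 8 h. Over all genes the shares higher and lower were 18.8% and 17.9% at 0 h, 14.6% and 17.4% at 4 h, and 13.9% and 13.7% at 8 h. They are the shares for the role groups below as well, and counts of 1 lie near them. Hk2, the insulin-responsive muscle hexokinase, measured 195, 182 and 190.4 CPM in the 3 KO libraries at 0 h and 234, 229.7 and 239 in WT. All KO libraries were below all WT libraries, at 4 and 8 h too. The log2 difference was -0.31 ± 0.04 at 0 h (adjusted p = 3.02e-08), -0.36 ± 0.05 at 4 h (adjusted p = 9.32e-09) and -0.26 ± 0.04 at 8 h (adjusted p = 2.63e-06, edgeR).

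Hk1, the general hexokinase, measured 138, 134 and 144 CPM in KO and 127, 128 and 125 in WT at 0 h, without overlap, with a difference of 0.13 ± 0.04 (adjusted p = 0.0133, edgeR). That call was lost without KO library 3 at 0 h (adjusted p = 0.0886) and without the low-count filter (0.169), and the sign turned under library size alone (-0.07) and under ribosomal scaling (-0.20). The value under ribosomal scaling passed as lower in KO (adjusted p = 0.00735, edgeR). At 4 and 8 h the Hk1 libraries of the genotypes overlapped, with differences of -0.0042 ± 0.05 and 0.01 ± 0.04. With ribosomal scaling Hk1 was called lower in KO at 4 h (-0.36, adjusted p = 1.64e-05, edgeR).

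Slc2a4, which encodes GLUT4, measured 356, 339.8 and 341 CPM in KO and 334, 348 and 345 in WT at 0 h, and the libraries overlapped. Its difference was 0.01 ± 0.04 at 0 h, -0.08 ± 0.04 at 4 h and 0.04 ± 0.04 at 8 h, with no call at any time under TMM (adjusted p = 0.831, 0.146 and 0.452, edgeR). It was called lower in KO at 0 h with library size alone (-0.19, adjusted p = 0.00132) and with ribosomal scaling (-0.31, 2.06e-05), and at 4 h with ribosomal scaling (-0.44, 1.39e-07, edgeR). Slc2a1, which encodes GLUT1, measured 14.8, 15.8 and 16.3 CPM in KO and 18.7 and 18.01 in WT at 4 h, a difference of -0.23 ± 0.09 (adjusted p = 0.0387, edgeR). This last call was lost on leaving out singly any of 7 libraries, from adjusted p = 0.0635 without KO library 2 at 4 h to 0.29 without WT library 1 at 4 h, and with RLE scaling (0.074), DESeq2 (0.16) or no low-count filter (0.198). At 0 h Slc2a1 was not called with TMM (-0.03) and was called lower with library size alone (-0.24, adjusted p = 0.0192) and with ribosomal scaling (-0.36, 0.000645, edgeR).

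In upper glycolysis, from glucose 6-phosphate to the triose phosphates, 4 of 8 genes were higher in KO at 0 h, 3 at 4 h and 5 at 8 h, and none was lower. No count of 0 among these role groups in KO against WT changed at an unadjusted p under 0.05 or with DESeq2. With ribosomal scaling Gpi1, Pfkm, Pfkl, Pfkp and Aldoa turned lower at 0 h, and Pfkm, Pfkl, Pfkp and Aldoa at 4 h. For Pfkm and Pfkp these lower values passed the test at both times (-0.25 and -0.24 at 0 h, adjusted p = 0.00074 and 0.00759, and -0.31 and -0.26 at 4 h, 0.000129 and 0.00854, edgeR). Gpi1 also passed as lower at 0 h (-0.17, adjusted p = 0.0264), and Pfkl and Aldoa at 4 h (-0.22 and -0.24, 0.0143 and 0.00311, edgeR). Pfkl and Aldoa did not pass at 0 h (adjusted p = 0.0788 and 0.329, edgeR). Tpi1, triose phosphate isomerase (ENSMUSG00000023456, chr6:124810586-124814296, minus strand), measured 614, 629.8 and 640.0 CPM in KO and 471, 415 and 415 in WT at 0 h. At 8 h it measured 810.4, 801 and 859 in KO and 766, 721 and 744 in WT, and the genotypes did not overlap at either time. The difference was 0.53 ± 0.04 at 0 h (adjusted p = 1.2e-15), 0.39 ± 0.05 at 4 h (adjusted p = 4.13e-09) and 0.15 ± 0.04 at 8 h (adjusted p = 0.00807, edgeR). The 8 h call was lost without KO library 3 at 8 h (adjusted p = 0.0777) and without WT library 2 at 8 h (0.0554). It was also lost with library size alone (0.05, adjusted p = 0.519) and with ribosomal scaling (0.09, 0.297), as was the 4 h call with ribosomal scaling (0.02, 0.773, edgeR).

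Aldoa, the muscle aldolase, measured 2434, 2295 and 2269.9 CPM in KO and 1964, 2008 and 1889 in WT at 0 h, without overlap. Its difference was 0.26 ± 0.04 at 0 h (adjusted p = 2.15e-07), 0.12 ± 0.04 at 4 h (0.0268) and 0.32 ± 0.04 at 8 h (7.01e-10, edgeR). The 4 h call was lost without KO library 1 (adjusted p = 0.0912) or WT library 1 (0.0535) at 4 h. Aldoa, scaled by library size alone, was not called at 0 h (0.05, adjusted p = 0.415) or 4 h (0.07, 0.376, edgeR). Gpi1, glucose 6-phosphate isomerase, differed by 0.16 ± 0.04 at 0 h (adjusted p = 0.00175) and 0.21 ± 0.04 at 8 h (5.42e-05), and its 4 h value of -0.04 ± 0.05 was not called. The 0 h value turned to -0.04 with library size alone. At 4 h Gpi1 was called lower with ribosomal scaling (-0.40, adjusted p = 4.18e-06), and the 8 h call was lost with library size alone (0.0967) and with ribosomal scaling (0.0776, edgeR).

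The 3 phosphofructokinase genes encode the subunits of the enzyme that commits sugar to glycolysis. Pfkm, the muscle subunit, was 0.08 ± 0.04 at 0 h and 0.05 ± 0.05 at 4 h, both not called, and 0.13 ± 0.04 at 8 h (adjusted p = 0.0101, edgeR), a call lost without WT library 1 at 8 h (0.0721), with library size alone (0.693) and with ribosomal scaling (0.423). At 0 h Pfkm was called higher with RLE scaling (0.11, adjusted p = 0.0355) and lower with library size alone (-0.12, 0.0473, edgeR). Pfkl, the liver-type subunit, was higher by 0.19 ± 0.05, 0.14 ± 0.05 and 0.23 ± 0.05 at 0, 4 and 8 h (adjusted p = 0.000988, 0.0359 and 0.000153). Its 4 h call was lost without KO library 1 at 4 h (adjusted p = 0.169), without WT library 1 at 4 h (0.0778) and with the replicate number as a block (0.0542), and its 0 h value turned to -0.02 with library size alone, which also ended the 4 h call (0.324) and the 8 h call (0.0983; 0.0674 with ribosomal scaling). Pfkp, the platelet-type subunit, stood at 0.09 ± 0.06, 0.09 ± 0.06 and 0.15 ± 0.06 with no call. The 8 h value of Pfkp passed with RLE scaling (adjusted p = 0.0206), DESeq2 (0.039) and no low-count filter (0.0356).

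Pfkfb1 and Pfkfb2 make and break down fructose 2,6-bisphosphate, the activator of phosphofructokinase, and with TMM neither was called between genotypes at any time. Pfkfb1 measured 6.03, 4.56 and 5.42 CPM in KO and 5.20, 5.55 and 4.74 in WT at 0 h, and the libraries overlapped (0.05 ± 0.14, adjusted p = 0.807, edgeR). Pfkfb2, the heart form, stood at -0.06 ± 0.06, -0.08 ± 0.07 and 0.10 ± 0.06 at 0, 4 and 8 h, with adjusted p = 0.512, 0.419 and 0.265. It was called lower in KO at 0 h with library size alone (-0.26, adjusted p = 0.00116) and with ribosomal scaling (-0.38, 4.1e-05), and at 4 h with ribosomal scaling (-0.44, 3.23e-05, edgeR).

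Lower glycolysis, from glyceraldehyde 3-phosphate to pyruvate, was called higher in KO for 7 of 7 genes at 0, 4 and 8 h, but with ribosomal scaling Eno1 and Pkm turned lower at 0 h and Gapdh, Eno1 and Pkm at 4 h. That scaling also ended the calls of Gapdh at 0 h (0.08, adjusted p = 0.273) and of Pgk1, Pgam2 and Eno3 at 4 h (0.08, 0.15 and 0.11, adjusted p = 0.313, 0.079 and 0.151). Library size alone ended those of Eno1 and Pkm at 0 h (0.272 and 0.759) and of Eno1 at 8 h (0.0817, edgeR). Pgam1 (ENSMUSG00000011752, chr19:41911923-41918660, plus strand) had the largest log2 difference of all 33 members at each time. It measured 12.1, 13.1 and 11.4 CPM in KO and 7.37, 6.34 and 7.18 in WT at 0 h, 11.5, 13.9 and 12.3 and 7.58 and 7.66 at 4 h, and 11.8, 10.5 and 12.02 and 6.63, 8.64 and 7.56 at 8 h. Each KO library was above each WT library of its time. The difference was 0.81 ± 0.10 (adjusted p = 1.23e-09), 0.72 ± 0.12 (7.8e-07) and 0.59 ± 0.10 (8.57e-06, edgeR). Pgam1 is one of the lowest of the members, and 34.9% of its 75-base windows occur in other genes, so its count is uncertain where reads were shared.

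Pgam2, the muscle phosphoglycerate mutase, had no window in common with another gene. It measured 402, 376 and 376 CPM in KO and 284, 261 and 274 in WT at 0 h, again without overlap, and differed by 0.49 ± 0.04 at 0 h, 0.50 ± 0.05 at 4 h and 0.24 ± 0.04 at 8 h (adjusted p = 1.31e-14, 9.34e-13 and 1.42e-05, edgeR). Eno3, the muscle enolase, measured 1369, 1304 and 1327 in KO and 931, 961 and 935 in WT at 0 h. Its KO libraries were all above its WT libraries, and it differed by 0.50 ± 0.04, 0.47 ± 0.04 and 0.29 ± 0.04 (adjusted p = 6.75e-17, 1.28e-13 and 1.37e-08).

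Pgk1, phosphoglycerate kinase, was higher in KO by 0.49 ± 0.04, 0.44 ± 0.05 and 0.34 ± 0.04 at 0, 4 and 8 h. Gapdh, often used as a reference gene, measured 3969, 3926 and 4013 CPM in KO and 3013, 3007 and 2964 in WT at 0 h, with differences of 0.41 ± 0.04, 0.32 ± 0.04 and 0.39 ± 0.04. Its KO libraries lay above its WT libraries at each time with TMM, and its 4 h value turned to -0.04 with ribosomal scaling. Eno1, the general enolase, was at 0.28 ± 0.05, 0.28 ± 0.05 and 0.23 ± 0.05, and Pkm, pyruvate kinase, at 0.23 ± 0.04, 0.25 ± 0.04 and 0.27 ± 0.04. The adjusted p of Eno1 was 2.12e-06, 3.39e-05 and 0.000132, and that of Pgk1, Gapdh and Pkm was smaller than 3.39e-05 at every time (edgeR).

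**Figure D2:**
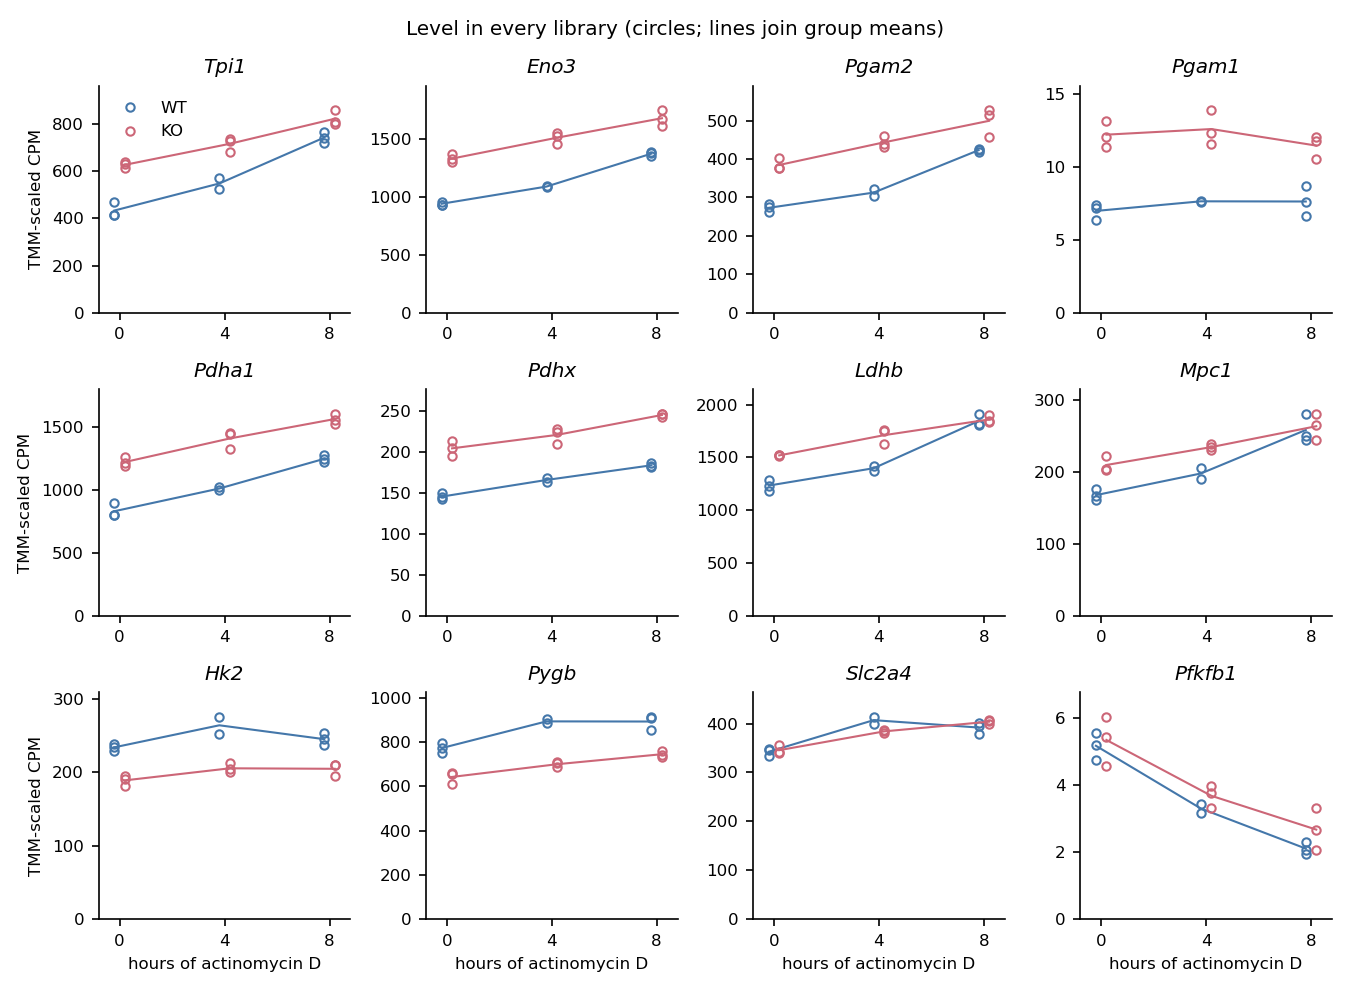
TMM-scaled CPM of 12 members in each of the 17 libraries, by genotype and hours of actinomycin D; points are libraries and lines join group means. Tpi1, Eno3, Pgam2, Pgam1, Pdha1 and Pdhx lie higher in KO at each time and Hk2 and Pygb lower, Ldhb and Mpc1 overlap at 8 h, and Pfkfb1 falls with time in both genotypes; with ribosomal scaling the values of Ldhb and Mpc1 at 0 h turn lower in KO.

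Of 9 genes for lactate and pyruvate entry, 8 were higher and 1 lower in KO at 0 h and at 4 h, and 6 were higher and none lower at 8 h. With ribosomal scaling Ldhb, Mpc1 and Dlat turned lower at 0 and 4 h, and Ldha at 4 h. The 4 pyruvate dehydrogenase genes, Pdha1 and Pdhb for the first enzyme, Dlat for the acetyltransferase core and Pdhx for the protein that binds the third enzyme, were higher at all 3 times, with the sign of Dlat at 0 and 4 h as just given. With ribosomal scaling Pdhb was no longer called at 0 h (0.07, adjusted p = 0.308) or 4 h (0.02, 0.821), nor Pdha1 (0.12, 0.136) and Pdhx (0.05, 0.541) at 4 h. Dlat was not called at 0 h with library size alone (0.04, 0.538, edgeR).

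Pdha1 (ENSMUSG00000031299, chrX:160122209-160138413, minus strand) measured 1216, 1264 and 1193 CPM in KO and 895, 799.9 and 803 in WT at 0 h, and 1530.3, 1558 and 1610.3 and 1281, 1222 and 1246 at 8 h. The genotypes did not overlap at 0, 4 or 8 h. The difference was 0.56 ± 0.04 at 0 h (adjusted p = 1.77e-17), 0.48 ± 0.05 at 4 h (1.15e-12) and 0.33 ± 0.04 at 8 h (4.08e-09, edgeR). Pdhx measured 213, 205 and 195 in KO and 149.6, 142 and 145 in WT at 0 h, also apart, with 0.49 ± 0.04, 0.41 ± 0.05 and 0.42 ± 0.04. Pdhb stood at 0.40 ± 0.04, 0.38 ± 0.05 and 0.27 ± 0.04, and Dlat at 0.25 ± 0.04, 0.28 ± 0.04 and 0.29 ± 0.04.

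Ldhb, the heart form of lactate dehydrogenase, measured 1520.4, 1509 and 1527 CPM in KO and 1287, 1229 and 1183 in WT at 0 h, and 1835, 1845 and 1897 and 1915, 1814 and 1803 at 8 h. KO was above WT at 0 h, and the libraries overlapped at 8 h. The difference was 0.30 ± 0.04 at 0 h (adjusted p = 7.61e-09), 0.29 ± 0.05 at 4 h (4.58e-07) and 0.01 ± 0.04 at 8 h (0.869, edgeR). Ldha, the form abundant in skeletal muscle, was higher by 0.35 ± 0.04, 0.36 ± 0.04 and 0.37 ± 0.04 at the 3 times. With ribosomal scaling Ldha was not called at 0 h (0.02, adjusted p = 0.738), and with library size alone Ldhb was not (0.10, 0.0988, edgeR).

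Mpc1 and Mpc2 encode the partner subunits of the mitochondrial pyruvate carrier. Mpc1 measured 202, 204 and 222 CPM in KO and 160.5, 167 and 176 in WT at 0 h, and 244, 266 and 280.3 and 281, 244 and 249 at 8 h, apart at 0 h and overlapping at 8 h. Its difference was 0.32 ± 0.05 at 0 h (adjusted p = 6.21e-07), 0.25 ± 0.06 at 4 h (0.000451) and 0.03 ± 0.05 at 8 h (0.714, edgeR). Mpc2 stood at 0.35 ± 0.04, 0.37 ± 0.05 and 0.19 ± 0.04, called at each time with TMM. With ribosomal scaling Mpc2 was called at none of them (0.02, 0.0087 and 0.13, adjusted p = 0.806, 0.922 and 0.112). With library size alone its 8 h call was lost (0.09, 0.193), as was the 0 h call of Mpc1 (0.11, 0.0939, edgeR).

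Slc16a1, which moves lactate and pyruvate across the cell membrane, measured 295, 296 and 291 CPM in KO and 337, 327 and 329 in WT at 0 h. All KO libraries were below all WT libraries, and this was so at 4 and 8 h as well. The difference was -0.17 ± 0.04 at 0 h (adjusted p = 0.000314) and -0.21 ± 0.04 at 4 h (7.04e-05), and at 8 h it was -0.04 ± 0.04 and not called (0.491, edgeR; -0.14 and adjusted p = 0.0255 with library size alone).

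Of 5 glycogen genes 3 were higher and 1 lower in KO at 0 h, 2 and 2 at 4 h, and 1 and 1 at 8 h. The counts at 8 h lie near the shares over all genes (13.9% and 13.7%). Pygb (ENSMUSG00000033059, chr2:150786735-150831758, plus strand) measured 658, 611 and 659 CPM in KO and 750.5, 774 and 794 in WT at 0 h, 710.0, 703 and 687 and 885 and 903 at 4 h, and 743, 761 and 733 and 853, 911 and 915 at 8 h. Every KO library was below every WT library of its time. The difference was -0.27 ± 0.04 (adjusted p = 1.29e-07), -0.35 ± 0.04 (1.82e-09) and -0.26 ± 0.04 (3.22e-07, edgeR), and no other scaling changed its sign or call. Library size alone and ribosomal scaling move all genes down in these comparisons, so they could not turn a lower value.

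Pygm, the muscle phosphorylase, measured 972, 946 and 1023 CPM in KO and 885, 901 and 938 in WT at 0 h, a difference of 0.11 ± 0.04 (adjusted p = 0.0208, edgeR). This call was lost without KO library 3 at 0 h (adjusted p = 0.156), without WT library 1 at 0 h (0.0963) and without the low-count filter (0.13), and the value turned under library size alone (-0.10) and under ribosomal scaling (-0.22). With ribosomal scaling Pygm was called lower in KO at 0 h (adjusted p = 0.00135) and at 4 h (-0.33, 2.23e-05, edgeR). Gbe1, the branching enzyme, was higher by 0.27 ± 0.05, 0.22 ± 0.06 and 0.31 ± 0.05 at the 3 times, but lower at 0 and 4 h with ribosomal scaling (-0.05 and -0.14) and not called at 0 and 4 h with library size alone (adjusted p = 0.373 and 0.0504, edgeR). At 8 h Pygm stood at 0.09 ± 0.04 without a call and passed with RLE scaling (adjusted p = 0.0172), DESeq2 (0.00829) and no low-count filter (0.00822).

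Ugp2, which makes the UDP-glucose used for glycogen, was higher by 0.19 ± 0.04 at 0 h (adjusted p = 0.000279) and 0.13 ± 0.05 at 4 h (0.0361), and stood at -0.03 ± 0.04 at 8 h (0.629, edgeR), where the libraries overlapped. Its 0 h value turned to -0.01 with library size alone, both turned with ribosomal scaling (-0.14 and -0.23), and the 4 h call was lost without KO library 2 (adjusted p = 0.168), KO library 3 (0.129) or WT library 2 (0.0745) at 4 h and with library size alone (0.345). Ugp2 was called lower at 4 h with ribosomal scaling (adjusted p = 0.00361) and at 8 h with library size alone (-0.13, 0.0411, edgeR). Gys1, muscle glycogen synthase, stood at 0.0013 ± 0.05 at 0 h and 0.12 ± 0.05 at 8 h with no call, and at -0.14 ± 0.05 at 4 h (adjusted p = 0.0413). That call was lost on leaving out singly any of 7 libraries (adjusted p = 0.0676 without KO library 2 at 4 h to 0.415 without WT library 2 at 4 h) and with the replicate block (0.0652), RLE scaling (0.115), DESeq2 (0.158) or no low-count filter (0.342). The 8 h value of Gys1 passed with RLE scaling (0.0184), DESeq2 (0.0283) and no low-count filter (0.0407). At 0 h Gys1 was called lower with library size alone (-0.21, adjusted p = 0.00317) and with ribosomal scaling (-0.33, 5.52e-05, edgeR).

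The second question was how these transcripts held up once transcription was blocked. With TMM most took a larger share of the library with time in actinomycin D, whereas with ribosomal scaling none rose and 1 to 27 fell. With TMM in WT 27 of 33 rose by 4 h (15.9% of all genes did) and 1 fell (12.6%), and by 8 h 24 rose (25%) and 2 fell (26.8%), 26 in all against 51.9% of genes. In KO 26 rose by 4 h (11.4% of all genes) and 1 fell (13.5%), and by 8 h 26 rose (21.4%) and 1 fell (23.2%), against 44.6% in either direction. The member that fell at 4 h was Pfkfb1 in both, and in KO it was not called without KO library 1 at 0 h. With library size alone 2 rose and 2 fell at 4 h in WT and 18 rose and 8 fell at 8 h, and with ribosomal scaling none rose and 1 fell at 4 h and none rose and 27 fell at 8 h. In KO it was 18 and 1 at 4 h and 21 and 1 at 8 h with library size alone, and 0 and 4, and 0 and 12, with ribosomal scaling. Shares of all genes are not given for these scalings, which shift all genes. With ribosomal scaling the median gene stood at -0.17 at 4 h and -0.69 at 8 h in WT, and at -0.23 and -0.41 in KO.

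Markers of the cell types moved over the same 8 h. Cardiomyocyte markers rose for 8 of 10 in WT and 9 of 10 in KO (median log2 change 0.50 and 0.38), and endothelial markers fell for 10 of 10 in both (-2.20 and -1.90). Fibroblast markers fell for 8 of 9 tested in both (-1.03 and -1.004), and macrophage and leukocyte markers for 10 of 10 in WT (-2.28) and 7 of 10 in KO (-0.53). Their part in the members' changes was not tested.

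Ribosomal protein transcripts took 0.879% to 0.984% of all counts in WT at 0 h and 1.22% to 1.33% at 8 h, and 0.958% to 1.07% and 1.17% to 1.30% in KO. Relative to the median gene, the members' median at 8 h stood 0.37 higher in WT and 0.31 higher in KO, and 29 members in WT and 30 in KO lay above it, which another scaling hardly changes by its construction. The members' share of counts outside the mitochondrial genome went from 3.05% to 3.12% in WT at 0 h to 3.38% to 3.46% at 8 h, and from 3.38% to 3.43% to 3.67% to 3.73% in KO.

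The members that rose at both 4 and 8 h in both genotypes numbered 24, and with ribosomal scaling none of them was called higher at 8 h in either genotype. The share of all genes with this joint pattern was not computed. Tpi1 had the largest rise in WT: it measured 471, 415 and 415 CPM at 0 h, 571 and 526 at 4 h and 766, 721 and 744 at 8 h, with each time above the last and a change of 0.78 ± 0.04 by 8 h (adjusted p = 6.1e-23, edgeR). Pgam2 changed by 0.63 ± 0.04 in WT and 0.38 ± 0.04 in KO, Mpc1 by 0.62 ± 0.05 and 0.33 ± 0.05, and Pkm by 0.39 ± 0.04 and 0.44 ± 0.04. Pgam1, with the largest genotype difference, was not called at 8 h in WT (0.13 ± 0.11, adjusted p = 0.329) or in KO (-0.09 ± 0.10, 0.48).

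Pfkfb1 was the member that fell in both genotypes under all 4 scalings. Library size alone and ribosomal scaling move all genes down from 0 to 8 h, so they could not turn a fall. In WT it measured 5.20, 5.55 and 4.74 CPM at 0 h, 3.16 and 3.43 at 4 h and 2.07, 1.95 and 2.28 at 8 h, and in KO 6.03, 4.56 and 5.42, 3.29, 3.98 and 3.75 and 2.66, 3.30 and 2.04. Libraries at 4 and 8 h were all below those at 0 h of the same genotype. The change by 8 h was -1.29 ± 0.17 in WT (adjusted p = 8.61e-10) and -1.01 ± 0.16 in KO (4.31e-07, edgeR). Pfkfb2 fell by 8 h in WT (-0.21 ± 0.06, adjusted p = 0.00361) and stood at -0.06 ± 0.06 in KO without a call (0.514).

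**Figure D3:**
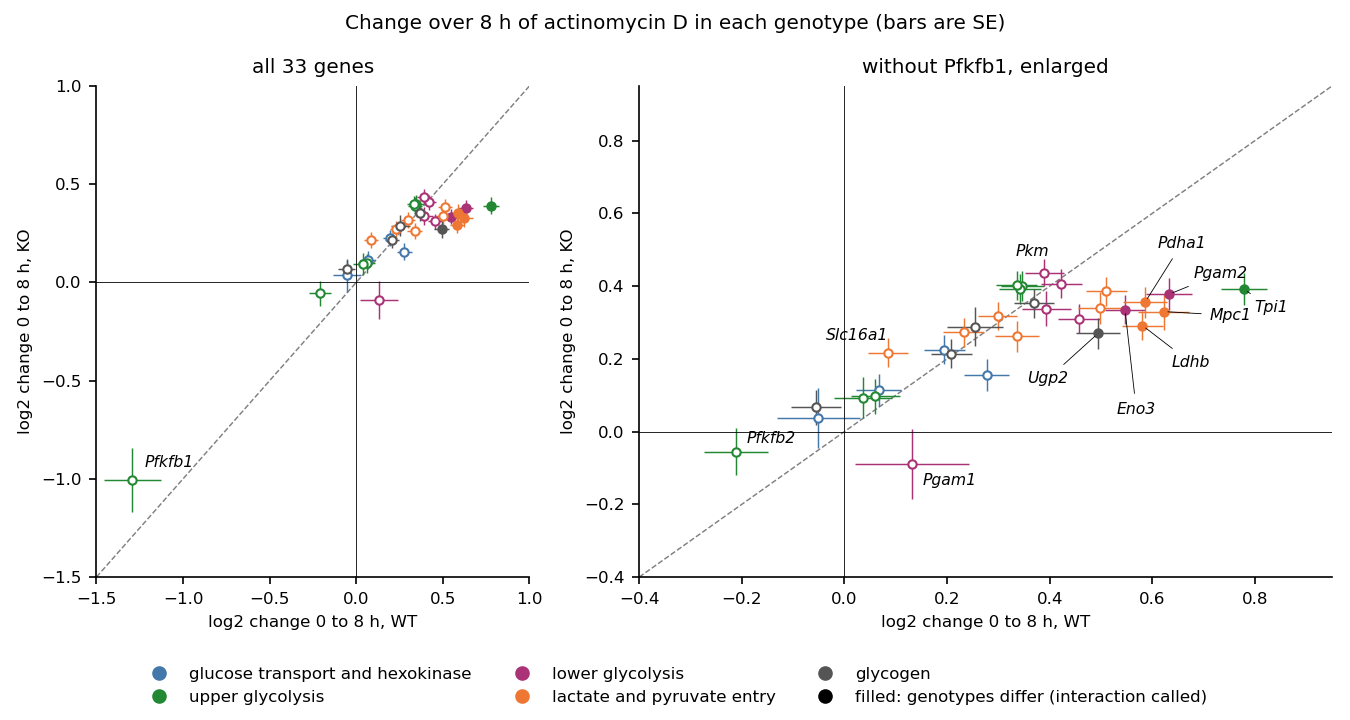
Log2 change from 0 to 8 h of actinomycin D for each member in WT (x axis) and KO (y axis), TMM-scaled counts, with filled points where the difference between the 2 changes passed an adjusted p of 0.05. Most points lie above 0 on both axes and Pfkfb1 far below it, and the 7 filled points, Tpi1 foremost, lie below the diagonal; with ribosomal scaling 24 values above 0 turn negative in KO and 28 in WT.

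Whether the genotypes changed differently with time was tested as an interaction, the KO change minus the WT change. At 4 h no member was called (0.348% of all genes were) by edgeR or DESeq2, and at an unadjusted p under 0.05 none was higher and 4 were lower by edgeR. At 8 h 7 members were lower (3.33% of all genes) and none higher (1.87% of all genes; 1 member at an unadjusted p under 0.05 and none by DESeq2), meaning a smaller rise in KO than in WT: Tpi1, Pgam2, Eno3, Ldhb, Mpc1, Pdha1 and Ugp2. With library size alone 1 member, Tpi1, was lower and 1, Slc16a1, higher (0.24), and with ribosomal scaling none was lower and 18 were higher, with the sign of Pgam2, Eno3, Pdha1 and Ugp2 turned. Under these scalings the median gene stood at 0.09 and 0.26 in this interaction, and shares of all genes are not given. Without KO library 2 at 8 h the number of members lower with TMM was 4. In the same test 4 of 10 cardiomyocyte markers were lower (median -0.17, against 0.0055 for the members) and 8 of 10 macrophage and leukocyte markers higher (median 1.69), and their part in the members' differences was not tested.

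Tpi1 rose by 0.78 ± 0.04 in WT and 0.39 ± 0.04 in KO, a difference of -0.39 ± 0.06 (adjusted p = 2.48e-05, edgeR) that was -0.28 with library size alone (adjusted p = 0.00881). Ldhb rose by 0.58 ± 0.04 and 0.29 ± 0.04, a difference of -0.29 ± 0.06 (adjusted p = 0.000666). Mpc1 rose by 0.62 ± 0.05 and 0.33 ± 0.05, a difference of -0.29 ± 0.07 (adjusted p = 0.00658). For these 3 genes the difference stayed negative under ribosomal scaling without a call.

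Of the rest, Pgam2 differed by -0.25 ± 0.06 (adjusted p = 0.00687), lost without KO library 2 at 8 h (0.0676). Pdha1 differed by -0.23 ± 0.06 (0.0113), lost without KO library 1 at 8 h (0.0502). Eno3 differed by -0.21 ± 0.06 (0.0127), lost without KO library 1 at 0 h (0.0549), KO library 2 at 8 h (0.0694) or the low-count filter (0.0516). Ugp2 differed by -0.22 ± 0.06 (0.0179), lost without KO library 2 at 0 h (0.0873), KO library 2 at 8 h (0.0636), WT library 1 at 8 h (0.068) or the low-count filter (0.14). Hk2, Pygb and Pfkfb1 were not called in this test, at 0.05 ± 0.06, 0.0055 ± 0.06 and 0.29 ± 0.24.

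Ratios of paired members within a library do not depend on the scaling between libraries, and 13 pairs were compared: isoforms, partner subunits and, apart from these, glycogen synthase over glycogen phosphorylase (Gys1 over Pygm). The genotype test was a two-sided exact permutation test within time over 4000 relabellings, whose smallest p is 0.00025, with Benjamini-Hochberg adjustment over the 13 pairs, and 10 pairs passed. Hk2 counts were 1.36 ± 0.0436 times those of Hk1 in KO at 0 h (SD, n = 3) and 1.85 ± 0.0594 times in WT. At 8 h the ratio was 1.26 to 1.40 in KO and 1.57 to 1.63 in WT, without overlap at either time. Averaged over the 3 times, the log2 ratio was -0.36 in KO relative to WT (adjusted p = 0.00108, exact permutation).

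Pygm over Pygb was 1.53 ± 0.0407 in KO and 1.17 ± 0.00980 in WT at 0 h (SD, n = 3) and differed by 0.37 in log2 over the 3 times (adjusted p = 0.00108, exact permutation). The muscle phosphorylase thus made up more of the pair in every KO library than in any WT library of that time. Pgam2 over Pgam1 was 31.7 ± 2.64 in KO and 39.3 ± 1.61 in WT at 0 h, a difference of -0.29 over the 3 times (adjusted p = 0.00195, exact permutation). Eno3 over Eno1 differed the other way, by 0.16 (adjusted p = 0.0065), from 0.21 at 0 h, 0.19 at 4 h and 0.06 at 8 h, where its libraries overlapped.

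Within the pyruvate dehydrogenase complex Dlat over Pdhx was 1.94 ± 0.110 in KO and 2.30 ± 0.0556 in WT at 0 h, and differed by -0.17 over the 3 times (adjusted p = 0.00162, exact permutation). Pdha1 over Pdhb differed by 0.10 (adjusted p = 0.00487). Both show unequal differences within the complex.

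Ldhb over Ldha was 2.36 ± 0.0443 in KO and 2.45 ± 0.163 in WT at 0 h, and 2.32 ± 0.0106 and 2.98 ± 0.135 at 8 h. The libraries overlapped at 0 h and were apart at 8 h, and the mean difference of -0.16 (adjusted p = 0.0154, exact permutation) comes from -0.05 at 0 h, -0.07 at 4 h and -0.36 at 8 h. The median over the times in place of the mean gave -0.07 (adjusted p = 0.532). Pfkm over Pfkl (-0.10, adjusted p = 0.00108), Mpc1 over Mpc2 (-0.10, 0.0293) and Gys1 over Pygm (-0.08, 0.0335) also passed. By time, Mpc1 over Mpc2 differed by -0.03, -0.12 and -0.16 at 0, 4 and 8 h. Gys1 over Pygm differed by -0.11 at 0 h and -0.17 at 4 h, but by 0.03 at 8 h. The call of Mpc1 over Mpc2 was lost on leaving out singly any of 4 libraries and with the median over times (adjusted p = 0.0549). The call of Gys1 over Pygm was lost on leaving out singly any of 8 libraries, with adjusted p up to 0.0852 without WT library 2 at 8 h. Pfkfb2 over Pfkfb1, Slc2a4 over Slc2a1 and Pfkm over Pfkp did not pass (adjusted p = 0.0745, 0.294 and 0.43).

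From 0 to 8 h, 8 of the 13 ratios moved, tested by two-sided exact permutation within genotype over 400 relabellings, whose smallest p is 0.005. Pfkfb2 over Pfkfb1 went from 6.05 ± 0.519 to 12.8 ± 1.27 in WT and from 5.69 ± 1.05 to 11.1 ± 2.31 in KO, a log2 change of 1.02 (adjusted p = 0.00929). Pgam2 over Pgam1 rose by 0.49, Pfkm over Pfkp by 0.30, Pfkm over Pfkl by 0.29, Slc2a4 over Slc2a1 by 0.22 and Pygm over Pygb by 0.15, and Gys1 over Pygm moved by -0.36 (each adjusted p = 0.00929). Apart from Gys1 over Pygm, these ratios moved towards the isoform with the higher counts. Hk2 over Hk1 moved the other way, away from the isoform with the higher counts, by -0.13 (adjusted p = 0.0325). That call was lost without KO library 1 at 0 h (0.0578) or KO library 3 at 8 h (0.065).

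Transcript length, which the list did not use, went with the differences. The members' principal mRNAs had a median of 2524 bases against 3081 for 12027 genes, and 23 of 33 were shorter than the latter. Across members the Spearman correlation of mRNA length with the KO over WT difference was -0.72 at 0 h, -0.70 at 4 h and -0.44 at 8 h, against -0.23, -0.21 and -0.06 across all 12027 genes. At 0 h the 13 members under 2000 bases had a median difference of 0.40 and the other 20 of 0.12, and all genes under and over that length had 0.12 and -0.05.

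For 8 against 0 h the correlation was -0.69 in WT and -0.52 in KO across members and -0.36 and -0.27 across all genes. The short members' median change in WT was 0.50 and the long members' 0.24, against 0.22 and -0.12 for all genes. For the 8 h interaction the correlation was 0.60 across members and 0.23 across all genes. Genes share libraries and are not independent replicates, so these are descriptions of the 17 libraries, and the part of length in the differences was not tested. A correlation across genes does not change when all genes shift together, as they do between scalings.

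**Figure D4:**
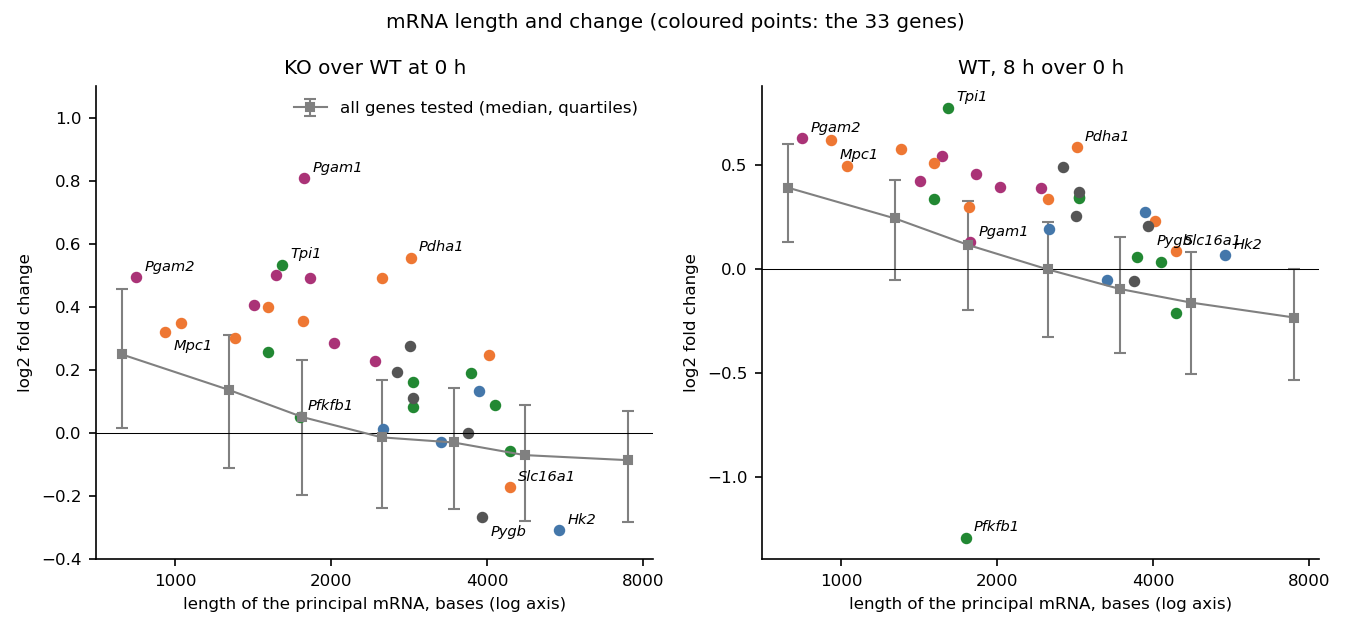
Length of the principal mRNA (x axis, bases, log scale) against the log2 difference (y axis, TMM-scaled counts) for KO over WT at 0 h and for WT at 8 over 0 h; coloured points are the 33 members and the grey line and band are the median and quartiles of all genes by length. Members under 2000 bases have medians of 0.40 and 0.50, above the longer members' 0.12 and 0.24; another scaling shifts all points of a panel by about the same amount, below 0 for many with ribosomal scaling.

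Levels can be set side by side per length of mRNA. In WT at 0 h Gapdh stood highest at 2109 ± 18.9 CPM per kb (SD, n = 3), then Aldoa at 1293 ± 39.8, Ldhb at 946 ± 40.1 and Eno3 at 602 ± 10.2, and the libraries of these 4 did not overlap. Pkm (415 ± 5.20) and Pdhb (404 ± 24.6) came next with overlapping libraries. The lowest were Slc2a1 at 4.90 ± 0.318, Pgam1 at 3.92 ± 0.308 and Pfkfb1 at 2.97 ± 0.233. Of the isoforms, the muscle form stood higher for Pgam2 (325 ± 13.7) against Pgam1, for Slc2a4 (136 ± 2.76) against Slc2a1 and for Eno3 against Eno1 (47.2 ± 2.13). Hk2 (42.5 ± 0.818) stood above Hk1 (32.9 ± 0.431) in WT at 0 h, and in KO the means stood in the opposite order, with Hk1 at 36.02 ± 1.22 and Hk2 at 34.3 ± 1.21 CPM per kb and overlapping libraries.

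Of 54 other genes listed for the same pathways, 47 were tested. In KO 8 were higher and 8 lower at 0 h (18.8% and 17.9% of all genes were), 8 and 9 at 4 h (14.6% and 17.4%), and 11 and 8 at 8 h (13.9% and 13.7%). At 0 and 4 h the counts were near the shares over all genes. Stbd1, which anchors glycogen to membranes, had 116 to 142 counts per KO library and 2 to 4 per WT library at 0 h. KO over WT, each relative to library size, was 43.7 at 0 h (exact 95% interval 22.8 to 96.4), 26.5 at 4 h (14.2 to 55.6) and 21.5 at 8 h (13.4 to 36.7), where the intervals cover counting error only.

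Dld, the third enzyme of the pyruvate dehydrogenase complex, was higher by 0.36 ± 0.05 at 0 h, 0.34 ± 0.05 at 4 h and 0.36 ± 0.05 at 8 h, with a value of -0.02 at 4 h under ribosomal scaling. The kinases that switch the complex off split: Pdk1 (0.29 at 0 h and 0.22 at 4 h, but -0.04 and -0.14 with ribosomal scaling) and Pdk3 (0.94) were higher in KO, and Pdk4, the form raised by fasting and fatty acids, measured 328, 325 and 316 CPM in KO and 462, 451 and 428 in WT at 0 h. KO libraries were all below WT libraries at each time, with -0.47 ± 0.04 at 0 h (adjusted p = 2.35e-15), -0.58 ± 0.04 at 4 h (4.34e-17) and -0.60 ± 0.04 at 8 h (6.73e-20, edgeR). The Pdk3 call at 4 h was lost without KO library 2 (adjusted p = 0.0622), KO library 3 (0.0777) or WT library 1 (0.166) at 4 h and with ribosomal scaling (0.32, adjusted p = 0.233). That of Dld at 0 h was lost with ribosomal scaling (0.04, 0.622) and that of Pdk1 at 0 h with library size alone (0.08, 0.165, edgeR).

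Several others were lower in KO at all 3 times. Phkg1, the muscle phosphorylase kinase subunit, differed by -0.86 ± 0.09, -0.86 ± 0.09 and -0.84 ± 0.08. Gpd1, glycerol 3-phosphate dehydrogenase, differed by -0.31 ± 0.05, -0.37 ± 0.06 and -0.19 ± 0.05, and Tigar, a fructose bisphosphatase, by -0.28 ± 0.06, -0.32 ± 0.07 and -0.33 ± 0.06. Ppp1r3b, which targets protein phosphatase to glycogen, differed by -0.36 ± 0.09, -0.39 ± 0.10 and -0.27 ± 0.10, with the 8 h call (adjusted p = 0.044, edgeR) lost on leaving out singly any of 8 libraries (0.0508 without WT library 2 at 4 h to 0.167 without WT library 1 at 8 h) and with RLE scaling (0.0694), DESeq2 (0.156), no low-count filter (0.134) or the replicate block (0.0505). Its 4 h call was lost without WT library 1 at 4 h (adjusted p = 0.0876). Gyg, glycogenin, and Pgm1, phosphoglucomutase, were higher at all 3 times, by 0.16 and 0.29 at 0 h, but both turned lower at 0 and 4 h with ribosomal scaling, Gyg also at 0 h with library size alone (-0.04), and both 4 h calls were lost on leaving out singly any of 3 libraries (adjusted p = 0.0613 to 0.0971 for Gyg and 0.0505 to 0.0621 for Pgm1). The 4 h calls were also lost with library size alone (0.351 for Gyg and 0.201 for Pgm1). The 8 h calls were lost with library size alone (0.499 and 0.319) and with ribosomal scaling (0.308 and 0.213). The 0 h call of Pgm1 was lost with library size alone (0.198, edgeR). With ribosomal scaling Gyg was called lower at 0 and 4 h (adjusted p = 0.024 and 0.00417) and Pgm1 at 4 h (0.016, edgeR).

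With actinomycin D, 20 of the 47 rose (25% of all genes did) and 12 fell by 8 h in WT, the latter near the share over all genes (26.8%). The 3 largest falls were those of Pfkfb3 (-1.84 ± 0.19), an inducible isoform in the family of Pfkfb1 and Pfkfb2, and of the phosphoglucomutase genes Pgm2 (-1.04 ± 0.30) and Pgm2l1 (-0.93 ± 0.22). The 3 largest rises were those of Pygl (0.70 ± 0.15), the liver phosphorylase, Bsg (0.51 ± 0.04), the chaperone of MCT1, and Gsk3a (0.48 ± 0.07), a kinase that acts on glycogen synthase. With ribosomal scaling Bsg turned to -0.15 and Gsk3a to -0.19, and Pygl was no longer called (0.04, adjusted p = 0.816, edgeR).

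Reads of some members could have been shared with copies. For 12 members no 75-base window of the gene's exons occurs in another gene, among them Hk2, Pygb, Pgam2, Eno3, Slc16a1, Dlat and Pdhx. For 5 over 20% of windows do: Pgk1 (52.8%), Pgam1 (34.9%), Eno1 (23.0%), Gapdh (22.6%) and Mpc1 (21.3%), most with processed pseudogenes, and these counts are uncertain. Copies of Mpc1 held 17.3% of the counts of gene and copies, and those of Pgk1, Pgam1, Eno1 and Gapdh at most 0.753%. Pfkfb2 shares 16.2% of its windows, with Yod1 among others, and Pdha1 10.6% with Map3k15. Pfkp shares 4.87% with Pitrm1, Gys1 4.43% with Ruvbl2 and Cgref1, and Pfkfb1 only 0.0479% with Apex2. Reads from the shared stretches cannot be told apart.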

How the data were processed

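RNA was measured in 17 libraries of mouse ventricular myocytes, grouped by genotype and hours of actinomycin D from the labels. The authors deposited raw counts per Ensembl gene. The tools STAR, featureCounts, DESeq2 and limma and the builds GRCm38 and mm10 stand in the submitters' processing notes, but versions, strand use and the treatment of multi-mapping reads are not given there. A deposited table of ratios was not used. Symbols came from GENCODE M21 (55226 of 55487 identifiers, 99.53%). Aldoa had a second identifier with 0 to 4 counts per library, which was left out. The 33 members, the other lists and the tests were chosen with earlier results of these data known. Some other pathway genes are not reported here and were left out of the lists' counts.

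Counts were fitted with edgeR 4.0.16 (R 4.3.3), filterByExpr (13230 genes, 99.93% of counts), TMM and 1 robust quasi-likelihood model of the 6 groups (biological coefficient of variation 5.28%), with Benjamini-Hochberg adjustment over all genes tested and a threshold of 0.05. CPM uses TMM-scaled library sizes, per kb of the principal mRNA where said. The fit was tested on simulated counts. Pair ratios were tested by exact permutation in Python 3.11.15. Alternatives were RLE scaling, library size alone, scaling by 83 ribosomal protein genes, no low-count filter, DESeq2 1.42.0, a replicate block and leaving out each library, and for ratios 0.5 added to counts and a median over strata. All 33 members may be named; of the other pathway genes, those called the same way in KO against WT at 0, 4 and 8 h, and the 3 highest and 3 lowest called for 8 against 0 h in WT.

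Within-group pairs of libraries (16) differed by 1.27 to 3.08 times Poisson counting, so none was counted as a copy. At 17059736 counts or more per library, Pfkfb1 and Pgam1 have the fewest counts of the members and the widest errors.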

Additional observations from a re-analysis of the deposited data

Results flagged for a closer look

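The difference between the genotypes' changes from 0 to 8 h of actinomycin D was called for 7 members and for 1 other gene of the pathways, by edgeR's quasi-likelihood interaction test. As KO change minus WT change in log2 (SE), it was -0.39 ± 0.06 for Tpi1, -0.29 ± 0.07 for Mpc1, -0.29 ± 0.06 for Ldhb, -0.25 ± 0.06 for Pgam2, -0.23 ± 0.06 for Pdha1, -0.22 ± 0.06 for Ugp2 and -0.21 ± 0.06 for Eno3. Scaled by library size alone, Tpi1 passed; scaled by ribosomal protein counts none did, and Pgam2, Pdha1, Ugp2 and Eno3 turned positive. Pdpr, the regulatory subunit of pyruvate dehydrogenase phosphatase, had the opposite sign, with 0.39 ± 0.07 (adjusted p = 0.000311). It is named because it passed this test, after its value was seen, and it passed under these scalings as well. Both move all genes up in this test, with the median gene at 0.09 and 0.26. A positive value is raised by that shift, so its passing is no sign of stability.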

How the results depend on the processing

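Many directions changed with the scaling between libraries. The counts under other scalings carry the shift of all genes, and the shares of all genes called under them are not given. With library size alone, members higher and lower in KO numbered 11 and 8 at 0 h, with 4 lower at 8 h. In WT 2 rose and 2 fell by 4 h and 8 fell by 8 h, and in the interaction at 8 h 1 was higher and 1 lower. With ribosomal protein scaling KO against WT had 7 higher and 12 lower at 0 h and 1 higher and 15 lower at 4 h. Under it none rose by 4 h in WT, 0 rose and 27 fell by 8 h in WT, 0 rose and 4 fell by 4 h and 0 rose and 12 fell by 8 h in KO, and 18 were higher and 0 lower in the interaction at 8 h. RLE scaling, DESeq2 and no low-count filter each left 3 lower at 4 h (5 in the main analysis), and no filter gave 1 higher in the interaction, Slc16a1. Sign changes are listed next only for log2 values called with TMM or with the scaling named. Changes of values called with neither are left out. The values so called that changed sign with library size alone were, for KO against WT at 0 h, Slc2a4 -0.19, Hk1 -0.074, Gpi1 -0.044, Pfkm -0.12, Pfkl -0.016, Pygm -0.097, Gys1 -0.21, Ugp2 -0.014 and Gyg -0.041. They were, for 8 against 0 h in WT, Slc2a4 -0.018, Hk2 -0.15, Pfkl -0.15, Pfkp -0.18, Slc16a1 -0.13 and Pygb -0.0051. The values so called that changed sign with ribosomal protein scaling were, for KO against WT at 0 h, Slc2a4 -0.31, Hk1 -0.20, Gpi1 -0.17, Pfkm -0.25, Pfkl -0.14, Pfkp -0.24, Aldoa -0.071, Eno1 -0.044, Pkm -0.10, Ldhb -0.029, Mpc1 -0.0090, Dlat -0.082, Pygm -0.22, Gys1 -0.33, Ugp2 -0.14, Gbe1 -0.053, Gyg -0.16, Pdk1 -0.035 and Pgm1 -0.039. They were, for KO against WT at 4 h, Pfkm -0.31, Pfkl -0.22, Pfkp -0.26, Aldoa -0.24, Gapdh -0.039, Eno1 -0.079, Pkm -0.11, Ldha -0.0025, Ldhb -0.069, Mpc1 -0.11, Dlat -0.082, Pygm -0.33, Ugp2 -0.23, Gbe1 -0.14, Dld -0.025, Gyg -0.23, Pdk1 -0.14 and Pgm1 -0.20. They were, for 8 against 0 h in WT, Slc2a4 -0.47, Hk1 -0.39, Hk2 -0.59, Gpi1 -0.32, Pfkm -0.32, Pfkl -0.60, Pfkp -0.62, Aldoa -0.33, Gapdh -0.24, Pgk1 -0.21, Pgam1 -0.53, Pgam2 -0.031, Eno1 -0.27, Eno3 -0.12, Pkm -0.27, Ldha -0.36, Ldhb -0.085, Slc16a1 -0.58, Mpc1 -0.044, Mpc2 -0.16, Pdha1 -0.079, Pdhb -0.15, Dlat -0.43, Pdhx -0.33, Pygm -0.29, Pygb -0.45, Ugp2 -0.17, Gbe1 -0.41, Gsk3a -0.19 and Bsg -0.15. They were, for 8 against 0 h in KO, Slc2a1 -0.35, Slc2a4 -0.17, Hk1 -0.23, Hk2 -0.27, Pfkl -0.29, Pfkp -0.30, Pgk1 -0.081, Pgam2 -0.015, Eno1 -0.050, Eno3 -0.056, Ldha -0.072, Ldhb -0.099, Slc16a1 -0.17, Mpc1 -0.060, Mpc2 -0.051, Pdha1 -0.036, Pdhb -0.0051, Dlat -0.12, Pdhx -0.13, Pygm -0.036, Pygb -0.17, Gys1 -0.32, Ugp2 -0.12 and Gbe1 -0.10. They were, for the interaction at 8 h, Gapdh 0.26, Pgam2 0.015, Eno3 0.060, Pdha1 0.043, Pygm 0.26 and Ugp2 0.049. RLE scaling, DESeq2, no filter and the replicate block turned no sign of a called value. Over the single-gene values, DESeq2 kept the side of the threshold in 230, with 5 gained and 3 lost, and RLE scaling in 229, with 6 gained and 3 lost. Adding 0.5 to both counts changed none of 26 ratio results, and the median over strata lost Ldhb/Ldha (adjusted p = 0.532) and Mpc1/Mpc2 (0.0549).

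Leaving out each library in turn gave, in KO against WT, 21 to 24 higher and 3 lower at 0 h, 18 to 20 and 3 to 5 at 4 h, and 18 to 21 and 2 at 8 h. The members that rose numbered 19 to 27 at 4 h and 24 at 8 h in WT, with 1 and 2 falling, and 19 to 26 and 25 to 26 in KO, with 0 to 1 and 1 falling. The 4 h interaction called 0 in either direction and the 8 h interaction 0 higher and 4 to 8 lower. Ratio pairs that passed numbered 8 to 10 for genotype and 7 to 9 for time. With WT at 4 h reduced to 1 library, that library is assumed to vary like the other groups.

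Equal replicate numbers did not pair the libraries: residuals correlated at -0.0469 to 0.0382 over 40 pairs and 3 of 17 libraries were closest to one of their own number. With the replicate number as a block, members higher and lower were 19 and 4 at 4 h, 25 and 1 for 4 against 0 h in KO, and unchanged in number elsewhere (23 and 3 at 0 h, 19 and 2 at 8 h, 24 and 2 for 8 against 0 h in WT, 26 and 1 in KO, and 0 and 7 in the interaction at 8 h). Among the named values it ended the calls of Pfkl and Gys1 at 4 h and of Ppp1r3b at 8 h and changed no other call. Cells kept without actinomycin D past 0 h were not analysed here, so time in culture and transcription block cannot be told apart.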
